A study of Homo sapiens with 12 samples.

Results

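The circular RNA of the CDR1 locus, known as CDR1as or ciRS-7, was followed across LN229 and T98G, a pair of established human glioblastoma cell lines. Its members were all circular RNAs (circRNAs) whose host gene is given as CDR1 in the deposited table, 2 of the 12538 listed. The plus-strand member, hsa_circ_0001946, held 610 reads, and the minus-strand member of the same interval held 0. Each line was grown in normoxia, under 95% air with 5% CO2, or in hypoxia, under 1% O2 with 5% CO2, and each of the 4 groups held 3 libraries. No genetic change or further agent is named for any group, and all cultures shared the same DMEM medium with 10% FBS, penicillin and streptomycin. The duration of hypoxia is not stated in the labels. Nothing in them says whether the 3 libraries of a group were separate cultures, and p-values then measure only the spread between these libraries, which may be technical.

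A circRNA is a closed loop of RNA made when a splice donor joins an acceptor upstream of it, and sequencing recognises it by reads across that back-splice junction. The CDR1 loop comes from a long noncoding RNA transcribed opposite to CDR1, a gene named for an antigen of paraneoplastic cerebellar degeneration. It carries a dense series of sites for miR-7, a microRNA that represses growth factor signalling genes, and a site for miR-671, which can direct its cleavage by Argonaute. It is known mainly from neurons, where it is highly abundant.

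The sequences that give the loop its name as a sponge are shown first. The mature microRNAs are from RefSeq on GRCh38.p14, with the seed, bases 2 to 8, in capitals. The other sequences are from LINC00632-210, a GENCODE release 29 transcript of LINC00632 on the plus strand of GRCh38, the strand opposite to CDR1. They show 4 of its miR-7 seed matches (the first, middle and last within the stretch antisense to CDR1, and the one with the most paired bases), with the seed match in capitals. In the miR-671 stretch, capitals mark the bases complementary to the microRNA.
hsa-miR-7-5p: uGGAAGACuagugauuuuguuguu
hsa-miR-671-5p: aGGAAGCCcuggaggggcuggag
First miR-7 match, chrX:140783584-140783607: cttccagtcaatcagtGTCTTCCa
Middle miR-7 match, chrX:140783973-140783996: cttccagactatccatGTCTTCCa
Last miR-7 match, chrX:140784333-140784356: cttccagaaaatccacGTCTTCCa
Most complementary miR-7 match, chrX:140783681-140783704: ttccagaaaaatctacGTCTTCCa
Stretch most complementary to miR-671-5p, chrX:140784460-140784482: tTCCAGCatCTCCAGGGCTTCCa

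The repeat itself is seen in the first 182 bases of the stretch antisense to CDR1, in which 8 seed matches stand in capitals.
Start of the stretch antisense to CDR1, chrX:140783578-140783759, plus strand: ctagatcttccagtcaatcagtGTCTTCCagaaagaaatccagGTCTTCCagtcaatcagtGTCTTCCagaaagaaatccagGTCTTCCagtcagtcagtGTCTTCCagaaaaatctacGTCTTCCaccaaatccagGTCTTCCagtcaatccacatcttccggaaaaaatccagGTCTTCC

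The letters searched were GTCTTCC, the complement of the miR-7 seed, on the strand of the transcript. The transcript is 21221 bases long and holds 69 matches. Of these, 38 lie within the 789 bases antisense to CDR1, while the sense CDR1 transcript holds 0. Neighbouring matches in that stretch start 18 to 38 bases apart, and 29 of the 37 spacings are 18 bases. Over the 24 bases of miR-7, aligned with no gap, 9 to 14 pair at each match, with a median of 11, so pairing beyond the seed is partial. The miR-671 stretch starts 93 bases past the end of the CDR1 stretch and pairs with 19 of the 23 bases of that microRNA, against 16 at the next best place in the transcript.

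The density was compared with other transcripts. In a window as long as the loop, 1485 bases, LINC00632-210 holds up to 67 matches. The longest transcripts of 23006 other genes hold at most 15 in any such window. A match occurs in 11.9% of 50457 consecutive windows of that length over all longest transcripts. The deposited coordinates are on hg19, so the exact ends of the loop were not read on GRCh38. A match of letters describes the transcript and does not measure binding by a microRNA. Of the 25 LINC00632 transcripts in the annotation, 4 hold the whole stretch antisense to CDR1.

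**Figure D1:**
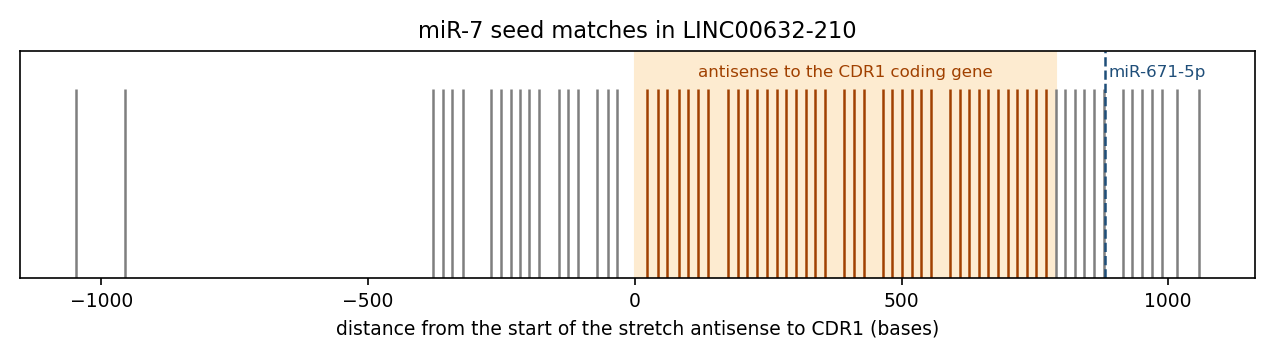
Each vertical line is the start of a miR-7 seed match in LINC00632-210, placed by its distance in bases from the start of the stretch antisense to CDR1 (shaded, 789 bases). Brown lines are the 38 matches inside the stretch, grey lines the 31 outside it, and the dashed line marks the stretch most complementary to miR-671-5p.

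On hg19, the build the submitters' processing notes name, the loop spans chrX:139865340-139866824 on the plus strand. The table classes it as antisense to the CDR1 transcript NM_004065, and gives its length as 1485 nucleotides. Among the 244 circRNAs with enough reads for testing, 18.9% are longer, and their median length is 654 nucleotides. The minus-strand member has the same ends, the class sense overlapping and no circBase identifier. It had 0 reads in each of the 12 libraries. A count of 0 allows up to 3 reads, that is up to 0.00419% of all junction reads, or 0.492% of the number counted on the plus strand.

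The table lists 15 intervals on both strands, and 14 of them have at least 1 read. Besides CDR1, 9 of the other 13 have reads on both strands. At the CYP24A1 interval the strand with fewer reads holds 23 against 8126, which is 0.282% of the pair. At GSE1 it holds 4 against 54, which is 6.9%. The labels do not state whether the libraries kept strand. Within 200 kb of the loop, 5 further circRNAs are listed, all on the plus strand with AK054921 as host and all inside the interval of the loop. All 5 have 0 reads in every library, and none in the table names LINC00632 as host. The reads of the locus therefore stand on 1 junction.

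The CDR1 loop was the second most read circRNA of the table. Its 610 reads were 0.853% of all 71526 junction reads (95% Wilson interval 0.788 to 0.923). Libraries held 4298 to 7608 junction reads in all, and 1 to 94 of the loop, so 1 or 2 reads more or fewer matter in the lowest ones. Intervals cover counting error of reads only. No molecular identifiers are named in the labels, so repeated reads of a molecule cannot be set apart, and the intervals may be too narrow. Shares are of all circRNA junction reads, not of all RNA, so fewer cells with the loop and less of it per cell cannot be told apart.

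Libraries with the same label stood apart, and this bears on every comparison of the loop. In LN229 normoxia the loop had 3, 4 and 86 reads in replicates 1, 2 and 3, which are 0.053%, 0.0838% and 1.13% of junction reads. In LN229 hypoxia it had 94, 72 and 65 reads, which are 1.42%, 1.04% and 1.15%. Replicate 3 of LN229 normoxia lies inside the hypoxia range, and its interval of 0.916 to 1.39% does not reach those of replicates 1 and 2, which end at 0.156% and 0.215%.

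In T98G normoxia the loop had 3, 1 and 52 reads, which are 0.0577%, 0.0233% and 0.865%. In T98G hypoxia it had 84, 67 and 79 reads, which are 1.23%, 1.21% and 1.23%. Replicate 3 of T98G normoxia is below all T98G hypoxia libraries, but its interval of 0.66 to 1.13% overlaps the lowest of theirs, 0.952 to 1.53%. The loop ranked 1 to 4 within each hypoxia library and second in both normoxia replicates 3, but 272 and 147 in the other LN229 normoxia libraries and 235 and 943 in the other T98G ones.

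The group means were 0.422% ± 0.613 (SD, n = 3) in LN229 normoxia and 1.2% ± 0.191 (n = 3) in LN229 hypoxia. In T98G they were 0.315% ± 0.476 (n = 3) in normoxia and 1.22% ± 0.0132 (n = 3) in hypoxia. Both normoxia SDs exceed their means, while the 3 T98G hypoxia libraries differ by a coefficient of variation of 0.0108. The order of the group means was T98G hypoxia, LN229 hypoxia, LN229 normoxia and T98G normoxia, and neither the hypoxia pair nor the normoxia pair differed beyond its spread.

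**Figure D2:**
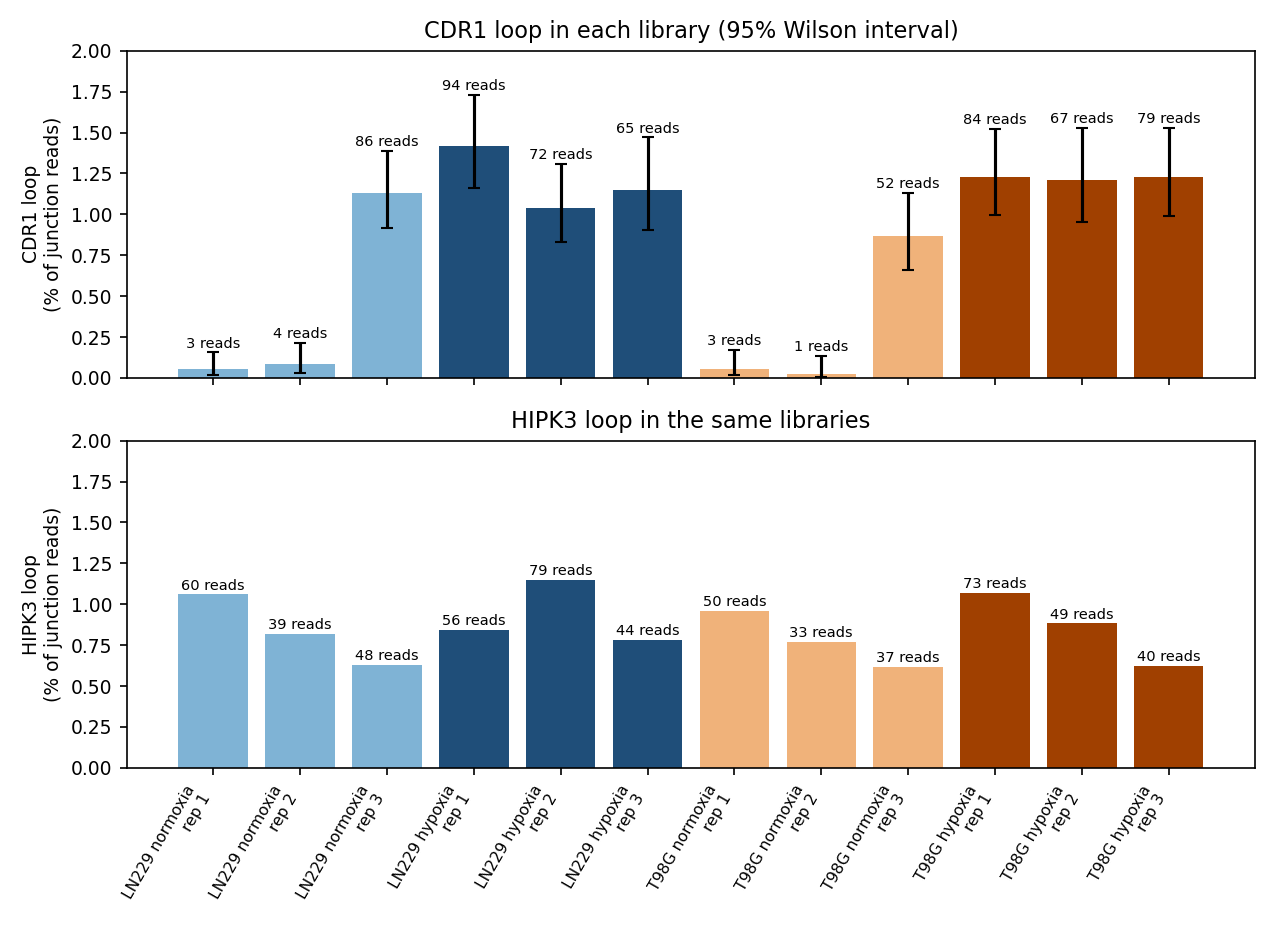
Percent of junction reads of the CDR1 loop (upper, with 95% Wilson intervals) and of the HIPK3 loop (lower) in each of the 12 libraries, with read counts above the bars. CDR1 is at 1 to 4 reads in normoxia replicates 1 and 2 of both lines and at 52 to 94 in the other 8 libraries, while HIPK3 stays at 33 to 79.

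The first comparison asked whether the loop differed between hypoxia and normoxia. In edgeR's quasi-likelihood test over all 244 tested circRNAs, its log2 fold change was 1.36 (SE 0.96, adjusted p = 0.726) in LN229, where 0% of circRNAs passed an adjusted p of 0.05 and 8.2% an unadjusted one. In T98G it was 2.21 (SE 0.99, adjusted p = 0.208), and 0.41% of circRNAs passed. Averaged over both lines it was 1.78 (SE 0.69, adjusted p = 0.173), and 4.1% passed. The loop was thus higher in hypoxia by each estimate, but it did not pass in any of the 3 comparisons. With the replicate number as a block it passed in T98G, at 3.29 (edgeR adjusted p = 0.03913), and on average, at 2.91 (adjusted p = 0.008477), but not in LN229. In that fit 9 of the 244 circRNAs passed in T98G and 10 on average. The block assumes that same-numbered libraries shift together. In LN229 replicate 3, however, the log2 CPM of the loop deviated from its group mean by 2.54 in normoxia and by -0.124 in hypoxia. In T98G replicate 3 these deviations were 2.4 and 0.0184. By DESeq2 the loop received no p in these comparisons, because the Cook's distance of LN229 normoxia replicate 3 reached the cutoff of 7.01. With that filter off, a choice made after the data were seen, DESeq2 gave 1.29 in LN229 (adjusted p = 0.9052) and 2.32 in T98G (adjusted p = 0.3695).

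The share of junction reads was also compared by an exact permutation test, two-sided, with condition permuted within each line. The share was higher in hypoxia by 0.782 percentage points in LN229 and by 0.907 in T98G, on average by 0.845, with an exact permutation p of 0.01, where 0.005 is the smallest possible. This p is for 1 circRNA and is not adjusted, and 22.5% of the 244 tested circRNAs have a p of at most 0.05 in the same test. The hypoxia libraries all lay above the normoxia libraries in T98G, as for 15.6% of tested circRNAs. In LN229 they overlapped because of normoxia replicate 3, where 6.15% of tested circRNAs had hypoxia libraries all above. Within a line, 3 libraries against 3 cannot give a p below 0.1. The exact permutation p for the share was 0.2 in LN229 and 0.1 in T98G.

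Each normoxia replicate 3 decides the size of the difference. Without that of LN229, the log2 fold change in LN229 was 4.29 (edgeR adjusted p = 0.0003746), and the T98G value of 2.19 also passed (adjusted p = 0.01061). Without that of T98G, the log2 fold change in T98G was 5.13 (adjusted p = 0.0155) and that in LN229 stayed at 1.36. The average was 3.24 in either case, with adjusted p of 4.618e-06 without the LN229 library and 0.004838 without the T98G one. Leaving out the LN229 library brought 15 of the 244 tested circRNAs under the threshold for LN229, 29 for T98G and 47 for the average. Leaving out the T98G library instead, these counts were 0, 16 and 17. Without both, the loop was higher by 4.29 in LN229 (adjusted p = 1.489e-09), by 5.12 in T98G (adjusted p = 1.017e-10) and by 4.71 on average (adjusted p = 1.018e-15), and 6.97%, 19.7% and 23% of circRNAs passed. These libraries were left out with their values known and lie near hypoxia, so leaving them out widens the difference by construction. Why they differ from the others of their label was not tested.

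**Figure D3:**
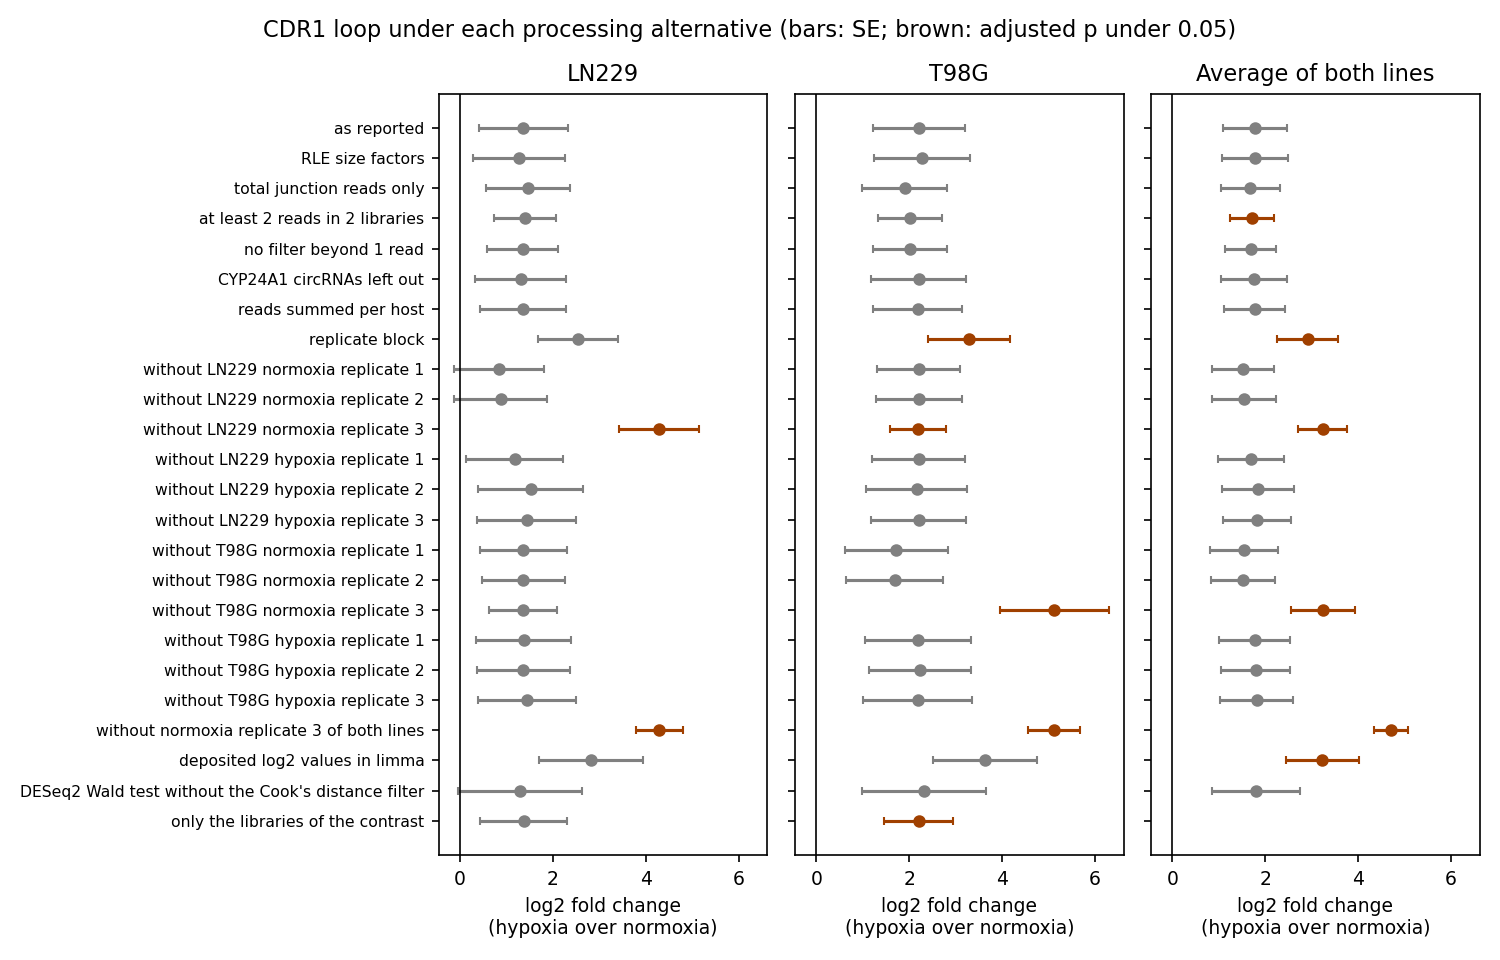
Log2 fold change of the CDR1 loop, hypoxia over normoxia, in LN229, in T98G and averaged (panels), under each processing setting (rows), with bars of 1 SE and brown points for an adjusted p under 0.05. All points lie above 0, and the largest shifts come with leaving out normoxia replicate 3.

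A second comparison asked whether the lines differed. In normoxia the log2 fold change of T98G over LN229 was -0.69 (edgeR adjusted p = 0.985), and in hypoxia it was 0.15 (adjusted p = 0.985). The difference of the hypoxia responses, T98G minus LN229, was 0.84 (SE 1.35, adjusted p = 0.913). In each of these 3 comparisons 0% of circRNAs passed, while 1.64%, 8.2% and 7.79% had an unadjusted p under 0.05. Without LN229 normoxia replicate 3 the sign turned for the lines in normoxia, to 2.26, and for the difference of responses, to -2.10, with adjusted p of 0.9083 and 0.6754. In hypoxia the 6 libraries lay between 1.04% and 1.42%, and those of T98G lay within the range of LN229.

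HIPK3, hsa_circ_0000284, an abundant loop of a kinase gene found in many cell types, gives a reference of nearly equal abundance. It had 608 reads, just below the 610 of CDR1. LN229 had 60, 39 and 48 reads of it in normoxia and 56, 79 and 44 under hypoxia. T98G had 50, 33 and 37 reads in normoxia and 73, 49 and 40 under hypoxia. Its share varied 1.87-fold between the lowest and highest library, against 60.9-fold for CDR1. The reads of CDR1 per read of HIPK3 were 0.05, 0.103 and 1.79 in LN229 normoxia, and 1.68, 0.911 and 1.48 in LN229 hypoxia. In T98G they were 0.06, 0.0303 and 1.41 in normoxia, and 1.15, 1.37 and 1.98 in hypoxia. The ratio thus lies between 0.911 and 1.98 in all hypoxia libraries and both normoxia replicates 3, and at 0.103 or lower in normoxia replicates 1 and 2 of both lines. Across the 12 libraries the SD of the log2 CPM (relative to junction reads, with TMM scaling) of CDR1 was 1.98, at rank 3 of the 244 tested circRNAs, whose median was 0.662.

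On the X chromosome, the table lists 247 circRNAs, 186 of them with a read, and CDR1 held 39.2% of their 1555 reads (95% Wilson interval 36.8 to 41.7). The next, from WWC3, held 33 reads, at 0 to 9 per library. It was at 0 in normoxia replicates 1 and 2 of both lines and also in LN229 hypoxia replicate 2. In T98G normoxia replicate 3 it had 1 read. In LN229, CDR1 made up 3.75%, 5.88% and 44.6% of X-linked reads in normoxia and 52.2%, 45.9% and 59.1% under hypoxia. Its share of X-linked reads in T98G was 3.85%, 1.69% and 36.6% in normoxia and 44.9%, 47.5% and 49.4% in hypoxia. All other X-linked loops together made up 0.798 to 1.51% of junction reads, a sum in which single loops can vary more.

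Loops of the antisense class were otherwise rare. The table lists 35, of which 18 have a read, and CDR1 held 93.1% of their 655 reads (95% Wilson interval 90.9 to 94.8). The highest of the others held 8 reads over all libraries, and together the others held 1 to 9 reads per library. CDR1 was the only antisense loop with enough reads for testing.

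The most read circRNA of the table came from CYP24A1, the vitamin D 24-hydroxylase, and it takes a large share of some libraries. LN229 had 2, 2 and 1870 reads of it in normoxia and 1494, 387 and 1 under hypoxia. T98G had 0, 1 and 675 reads in normoxia and 1327, 998 and 1369 under hypoxia. It is high in the libraries where CDR1 is high, except LN229 hypoxia replicate 3, which has 1 read of it and 65 of CDR1. With CYP24A1 loops left out of the totals, the mean share of CDR1 was 0.546% ± 0.827 (n = 3) in LN229 normoxia and 1.36% ± 0.405 (n = 3) in LN229 hypoxia. In T98G it was then 0.352% ± 0.54 (n = 3) in normoxia and 1.52% ± 0.047 (n = 3) in hypoxia.

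The loops with the most similar pattern were found by the root mean square difference of log2 CPM over the 12 libraries, after each profile was centred on its own mean. The median over tested loops was 1.99. The nearest was SPECC1, at 0.784, from a gene of a cytoskeletal coiled-coil protein. Its reads were 11, 12 and 69 in LN229 normoxia and 59, 82 and 58 in LN229 hypoxia. In T98G they were 6, 6 and 39 in normoxia and 47, 63 and 59 in hypoxia. SPECC1 thus shares with CDR1 the low replicates 1 and 2 of normoxia and the high replicate 3, over a narrower range.

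MTUS1, from a gene of a microtubule-associated protein, was next at 0.827. Its reads were 0, 0 and 14 in LN229 normoxia and 18, 10 and 2 in LN229 hypoxia. T98G had 0, 0 and 6 reads of it in normoxia and 15, 16 and 14 under hypoxia. FGD6, from a gene of an exchange factor of small GTPases, followed at 0.915, then MTCL1, a microtubule crosslinking factor, at 1.02. PDE4D, a cAMP phosphodiesterase, was at 1.12, and PTPRM, a receptor tyrosine phosphatase, at 1.2. All 6 had fewer reads in normoxia replicates 1 and 2 of both lines than in both normoxia replicates 3, which the choice by likeness favours. In LN229 hypoxia replicate 3, where CDR1 had 65 reads, they differed. There PDE4D had 0 reads, MTUS1 and FGD6 2 each, PTPRM 3, MTCL1 12 and SPECC1 58.

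The farthest patterns ran the other way. ITGA4, an integrin subunit, at 3.79, had 27, 26 and 0 reads in LN229 normoxia and 0 in each LN229 hypoxia library. T98G had 40, 34 and 11 reads of it in normoxia and 0 in each hypoxia library. NF1, a Ras GTPase-activating protein, was at 3.27 and CBFB, a core-binding factor subunit, at 3.25, and both were at 0 in all hypoxia libraries and in LN229 normoxia replicate 3. In T98G normoxia replicate 3, NF1 had 9 reads and CBFB 3. Since the nearest and farthest loops were chosen by their distance from CDR1 over the same libraries, their values in either normoxia replicate 3 are a description and not a separate check of those libraries.

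**Figure D4:**
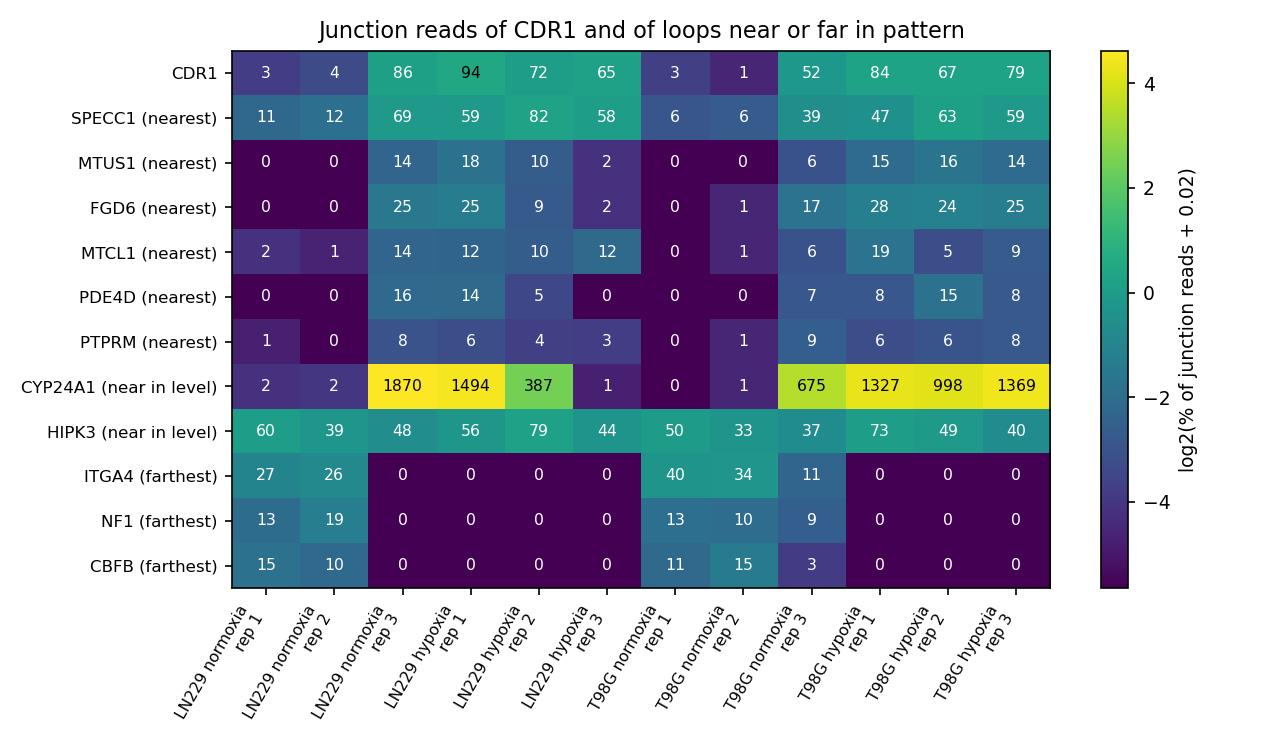
Junction reads (numbers) of CDR1, its 6 nearest and 3 farthest loops in pattern, and CYP24A1 and HIPK3, the loops next above it in mean level, in each of the 12 libraries. Colour gives the log2 of the percent of junction reads plus 0.02. CDR1 and its nearest loops are darkest in normoxia replicates 1 and 2, and PDE4D, at 0 reads, is as dark in LN229 hypoxia replicate 3.

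Of 7 other loops known by name that were matched by circBase identifier, 4 had enough reads for testing, and 0 of the 4 passed by edgeR in LN229, T98G or on average, where 0%, 0.41% and 4.1% of all tested passed. PVT1, hsa_circ_0001821, passed on average without LN229 normoxia replicate 3 (log2 fold change 1.43, adjusted p = 0.0329), without T98G normoxia replicate 3 (1.8, adjusted p = 0.0252) and without both (1.95, adjusted p = 0.00375). In these fits, made with the values of the libraries known, 47, 17 and 56 of all tested circRNAs passed on average. ZKSCAN1 had 7 to 20 reads per library, ZNF609 2 to 20 and PVT1 2 to 12. SMARCA5 had 0 to 3, SHPRH 0 to 4 and FOXO3 0 to 3 and were not tested. Among the other named loops, HIPK3 alone approached CDR1 in reads.

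Loops hosted by genes of the miR-7 pathway were counted as the nearest view of its targets that this table gives, although a loop's reads do not measure the host's messenger RNA. Of 27 genes, 13 hosted 47 loops with a read, at 27 to 49 reads per library in all. The 4 loops with enough reads all came from PTK2, which encodes focal adhesion kinase, and 0 of 4 passed in LN229, T98G or on average by edgeR. Their median log2 fold change was 0.14 in LN229, 0.24 in T98G and 0.37 on average, against -0.04, -0.02 and 0.03 over all tested. The PTK2 loop hsa_circ_0006646 had the smallest p, with a log2 fold change of 2.02 in LN229 (SE 0.65, adjusted p = 0.204), against -0.13 in T98G (adjusted p = 0.929) and 0.94 on average (adjusted p = 0.297). IGF1R, a growth factor receptor gene and a known target of miR-7, hosted loops with too few reads for a test.

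Genes that act on circRNAs and microRNAs were likewise hosts of few reads. Of 25 genes of the microRNA machinery, among them the Argonaute genes AGO2 to AGO4 and DICER1, 13 hosted 44 loops with 8 to 32 reads per library. Of 41 genes of circRNA biogenesis and turnover, among them QKI and ADARB1, 21 hosted 36 loops with 8 to 23 reads per library. In these lists 0 loops had enough reads for testing. Since the loop is known from neurons, hosts that mark neurons were counted too. Of 10 such genes, MAP2 alone had reads, 3 in all, and the 9 markers of astrocytes and glia hosted 0 reads. Of 5 markers of glioblastoma cells in culture, CD44 alone had reads, 12 in all, and the markers of endothelium and immune cells hosted none. The table therefore gives little check of cell identity.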

How the data were processed

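Junction reads of circRNAs were counted in 12 libraries of ribosome-depleted RNA, prepared with TRIzol and Ribo-Zero per the labels' protocols. The authors deposited raw counts of junction reads and log2 values for each circRNA in each library. CASAVA 1.8, BWA and hg19 are named, with no role, per the submitters' processing notes, and the circRNA caller was not given in the sources used here. In the deposited log2 values, 0 reads is 5.3, and their scaling is not given, so they served only as an alternative in limma 3.58.1. All value columns matched a library by title, and 1 empty line was not used.

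CircRNAs with at least 5 reads in at least 3 libraries were tested (244 of 9526 with a read). edgeR 4.0.16 under R 4.3.3 fitted 1 mean per group over all libraries with TMM scaling, and its two-sided quasi-likelihood F test was adjusted by Benjamini-Hochberg over all tested, with a threshold of 0.05. DESeq2 1.42.0 was an alternative. The SE is the log2 fold change divided by the square root of F. The permutation test over both lines used 400 assignments, in NumPy 2.4.6 under Python 3.11.15, and fewer where libraries were paired or left out. SciPy 1.17.1 gave the Wilson intervals and the permutation tests within a line. Of these steps only the edgeR fit, without TMM scaling, was tried on simulated counts. Their dispersion was set to 0.05, against a common dispersion of 0.261 in these data. The check required only that the simulated fold changes were recovered.

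The members, lists and alternatives were chosen with earlier results of these data known. Named beside CDR1 were the 6 nearest and 3 farthest patterns, neighbours in mean level (only 2 circRNAs lie above), antisense loops with at least 10 reads (CDR1 alone), loops known by name and the smallest p of a list. The circITCH identifier was not analysed here. Replicate numbers are from the titles. Deviations of same-numbered libraries from their group means correlated at -0.545 to 0.0607 between normoxia and hypoxia of a line. Those libraries thus did not deviate together, which does not show whether the cultures were handled as pairs. Between LN229 and T98G the deviations correlated at 0.462, 0.39 and 0.674 in normoxia and at -0.0705 to 0.0128 in hypoxia, so same-numbered normoxia libraries deviate together across lines. Deviations within a group of 3 sum to 0, so the 3 normoxia values are not independent of each other.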

Additional observations from a re-analysis of the deposited data

How the results depend on the processing

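The log2 fold change of the CDR1 loop in hypoxia kept its positive sign under every alternative run, and its call did not. Leaving out 1 of the 12 libraries at a time gave 0.83 to 4.29 in LN229, 1.69 to 5.13 in T98G and 1.52 to 3.24 on average, and it passed only without LN229 normoxia replicate 3 (all 3 comparisons) or T98G normoxia replicate 3 (T98G and average). Without normoxia replicate 3 of both lines the values were 4.29, 5.12 and 4.71, and all passed. With a replicate block it was 2.54 in LN229 (adjusted p = 0.2743), 3.29 in T98G (adjusted p = 0.03913) and 2.91 on average (adjusted p = 0.008477). Same-numbered hypoxia and normoxia libraries of a line did not deviate together, but same-numbered normoxia libraries of the 2 lines did. With the block the lines in normoxia differed by -0.63 (edgeR adjusted p = 0.9761). From an edgeR fit to the T98G libraries alone, 2.21 passed (adjusted p = 0.04869). In that fit 21 of the 244 circRNAs passed as higher in hypoxia and 15 as lower. On average, 1.71 passed with a filter of 2 reads in 2 libraries (adjusted p = 0.03161), as did 3.23 from the deposited log2 values in limma (adjusted p = 0.02523). With that filter 29 of 2234 circRNAs passed on average. By limma 4 of 244 passed as higher on average and 11 as lower. The difference of responses ranged from -2.10 to 3.77 over single libraries left out, the lines in normoxia from -3.61 to 2.26 and in hypoxia from 0.02 to 0.34; none passed. The difference in share kept a permutation p under 0.05 under all alternatives run, from 0.752 to 1.02 points over single libraries left out (p of 0.005 to 0.03). For the replicate block the permutation p was 0.0312, the smallest possible over its 64 assignments. These p-values are not adjusted, and 22.5% of the 244 tested circRNAs have one of at most 0.05 in the permutation test as reported. That share was not counted for the alternatives. DESeq2 with its default filter gave the loop no p and no value is counted for it. The number of circRNAs passing ranged from 0 to 17 in LN229 (0 as reported), 0 to 48 in T98G (1 as reported) and 4 to 56 on average (10 as reported). Of the 6 nearest loops, 5 or 6 were shared under each alternative. At 1 to 4 reads, a normoxia share has a wide interval, and the cause of the lost or gained calls was not tested.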
